A study of Mus musculus with 5 samples.

Results

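The ATP-binding cassette (ABC) transporters are described here as 42 mouse genes read by 74 microarray probes. They are the non-control probes whose RefSeq accession maps to a symbol of subfamilies Abca to Abcg, with Abcb11, Abcd3, Abcg5 and Abcg8 left out by the rule. The array named 17016 genes through 24375 probes in all. Subfamily A holds 14 of the members, B 7, C 10, D 3, E 1, F 3 and G 4. Of 50 gene symbols with this pattern in the annotation, 4 had no named probe and were not analysed here. One probe read each of 19 members, and 23 members had several, up to 4.

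Total RNA of 5 liver samples, called livers 1 to 5, was labelled with Cy5 and hybridised against a purchased reference RNA labelled with Cy3. The livers came from male C57BL/6N mice kept on an ethanol diet for 8 weeks and given 3 ethanol binges of 5 g per kg. The reference was Ambion Mouse Assorted Total RNA, which the labels also give as liver of C57BL/6N mice, with no diet stated. The study concerns the induction of the cytochrome P450 gene Cyp2b10 by binge ethanol, and these samples were run beside another series that was not analysed here. There was 1 group of samples, and the dyes were the same way round on each array. Every ratio therefore sets liver over reference RNA, and no value compares ethanol with a control diet. Nothing in the labels states that the 5 samples are separate animals, so a p-value covers the spread among them only, and that spread may be technical. The reference RNA has no replicate spread of its own in these tests, and any dye bias of a probe stays in its ratio.

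ABC proteins use the energy of ATP to move molecules across membranes. In liver, members on the bile canalicular face of the hepatocyte export phospholipid, sterols and drug conjugates into bile, while others on the blood-facing membrane return conjugates and bile acids to the circulation or load cholesterol onto lipoproteins. Further members work in mitochondria, peroxisomes and lysosomes, and subfamilies E and F have no membrane domain and act on ribosomes.

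Median background-subtracted signal over all probes lay between 83 and 187 in livers and between 106 and 192 in the reference, in arbitrary scanner units. Tested probes had 3 values or more and a signal well above background, in liver or reference, on 3 arrays or more. This left 62 member probes of 39 genes (83.8%, against 77.4% of all probes). Of the 74 member probes, 57 were well above background in all 5 livers, 52 in the reference on all 5 arrays and 4 in neither channel on any array. All 11 hepatocyte marker probes were well above background in every liver. The scanner software set the same flag in every liver for 12 of 14 brain marker probes, so the flag alone does not mark a gene as one that liver is known to express. In whole tissue, fewer cells of a type and less RNA per cell cannot be told apart.

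The ABC members lay below the reference RNA more often than above it. At a Benjamini-Hochberg adjusted p below 0.05 in limma, 17 member probes of 12 genes were lower in liver (27.4% of the 62 tested, against 11.5% of all 31887 tested probes and 13.4% of those with a gene name). Only 4 member probes of 3 genes were higher (6.45%, against 16.2% of all tested probes and 12.7% of those with a gene name). Among the called probes, an Abcc4 probe (lower) and the Abcb1a probe (higher) were tested only through their brighter channel. The calls of these probes are no support for a difference. The median log2 ratio was -0.10 over member probes, -0.003 over all tested probes and -0.031 over those with a gene name. No member probe that was called reached a 2-fold difference, which 1.2% of all tested probes did upward and 0.32% downward (0.692% and 0.407% of those with a gene name). With probes of a gene averaged, 6 of the 39 tested genes were lower and 2 higher. The share of all genes called was not computed for that setting. Among the 51 member probes that exceeded background clearly in every liver and in the reference on every array, 14 were lower and 2 higher. Over all probes that met this condition, 13.1% were lower and 15.2% higher. The genes with a lower call were Abca2, Abca3, Abca8b, Abca9, Abcb1b, Abcb4, Abcb6, Abcc1, Abcc3, Abcc4, Abce1 and Abcg2, and those with a higher call were Abca3, Abca5 and Abcb1a. By subfamily, lower calls fell on 6 of 10 tested probes of B, 4 of 15 of C, 4 of 23 of A, 2 of 3 of G and 1 of 2 of E. Subfamilies D and F, with 3 and 6 tested probes, had no call in either direction. The median of the member probes was below the median of all tested probes in each of the 5 livers, at -0.08 against 0.00 in liver 1 and -0.18 against 0.01 in liver 2.

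**Figure D1:**
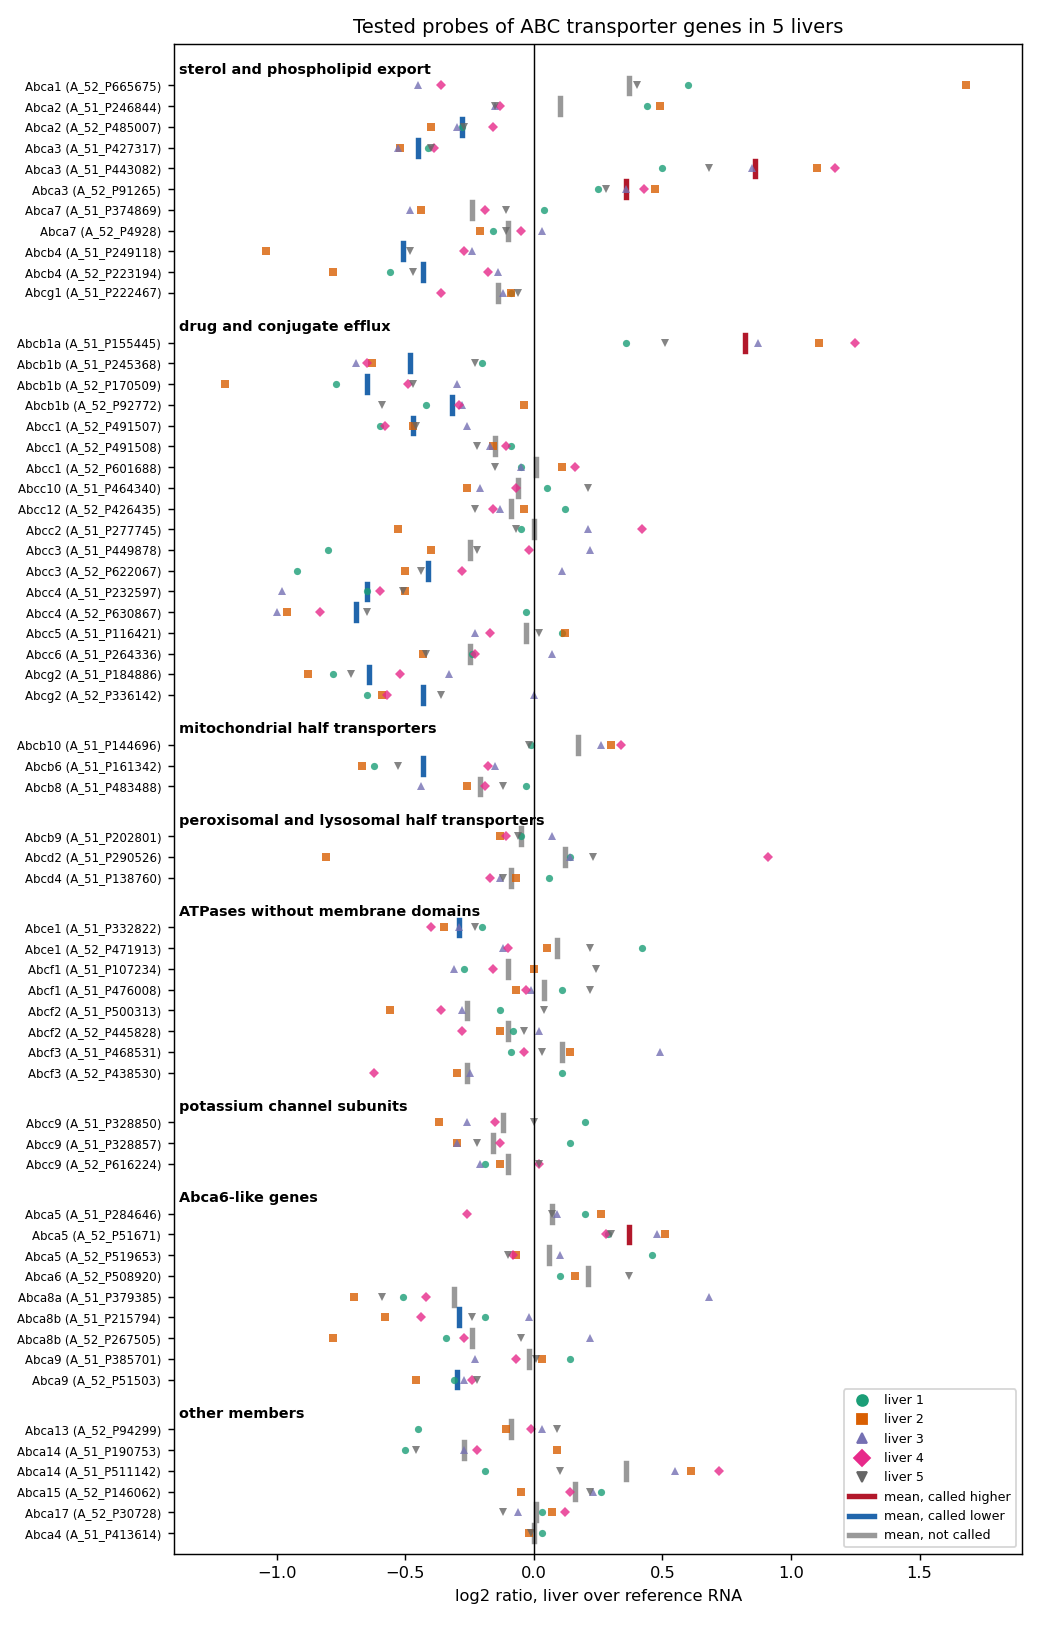
Log2 ratio of liver over reference RNA (x axis) for the tested member probes reported here (rows, by role), with 1 point per liver and a bar at the mean, coloured by call. Most called bars lie left of 0, while Abcb1a, 2 of the 3 Abca3 probes and 1 Abca5 probe were called higher and lie to the right in every liver.

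Of the 17 lower calls, 9 fell on drug and conjugate exporters, on 5 of the 12 genes with such a call. Of their 18 tested probes, 9 were lower in liver (50%) and 1 was higher (5.56%), with a median log2 ratio of -0.29. The lower probes take in the second Abcc4 probe, and the higher one is the Abcb1a probe. Both of these were tested only through their brighter channel. Over all tested probes these shares were 11.5% and 16.2%. Abcc4, which exports bile acids and cyclic nucleotides across the blood-facing membrane of hepatocytes, was lower on a probe that exceeded background clearly in every liver and in the reference on every array. On that probe, A_51_P232597, its log2 ratios were -0.65, -0.50, -0.98, -0.60 and -0.51 in livers 1 to 5. Every liver lay below the reference, and liver 3 lay lowest. The mean was -0.65 ± 0.20 (SD, n = 5, adjusted p = 0.00145 in limma), so that liver stood at 0.638 times the reference. The background-subtracted signals of that probe were 63.5, 156, 120, 108 and 109 in livers 1 to 5, against 149, 248, 240, 244 and 277 in the reference on the same arrays. Signals in every liver were below the reference signal beside it, before dye normalization. Over all probes the median signal was also lower in liver on arrays 1, 2, 4 and 5. On array 3 that median was 187 in liver against 158 in the reference. The second probe, A_52_P630867, was well above background in only 2 of the 5 livers and in the reference on 4 arrays. It was thus tested only through the channel in which it was brighter, and its call is no separate evidence of a difference. Its ratios were -0.03, -0.96, -1.0, -0.83 and -0.65 (mean -0.69 ± 0.40, adjusted p = 0.00722). With the scanner software's processed signals its mean was -1.74 and its adjusted p 0.0525.

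Abcg2, the breast cancer resistance protein that exports drugs, urate and porphyrins, had ratios of -0.78, -0.88, -0.33, -0.52 and -0.71 on probe A_51_P184886 (mean -0.64 ± 0.22, adjusted p = 0.00203). Livers 1, 2 and 5 were the lower ones and liver 3 lay nearest to the reference. The signals there were 589, 800, 1840, 1160 and 1060 in livers, against 1060, 1550, 2000, 2110 and 2520 in the reference. The second Abcg2 probe, A_52_P336142, had ratios of -0.65, -0.59, 0.00, -0.57 and -0.36 (mean -0.43 ± 0.27, adjusted p = 0.0164). Liver 3 again lay highest, at the level of the reference. Without liver 2 or without liver 4 the adjusted p of this probe was 0.0517 and 0.0641.

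The P-glycoprotein genes Abcb1a and Abcb1b, close paralogs that export many drugs, had mean ratios on opposite sides of the reference, but the Abcb1a value rests on 1 dim probe. Abcb1a, on probe A_51_P155445, had log2 ratios of 0.36, 1.11, 0.87, 1.25 and 0.51 in livers 1 to 5. Every liver lay above the reference, with livers 2 and 4 highest and liver 1 lowest. The mean was 0.82 ± 0.38 (SD, n = 5, adjusted p = 0.00298). The signals were 51, 147, 147, 145 and 109 in livers, against 53, 60.5, 62.5, 68 and 108 in the reference. Liver exceeded the reference clearly on arrays 2 to 4, while on arrays 1 and 5 the unnormalized signals were nearly equal. The probe was well above background in all 5 livers but in the reference on 1 array only, so that it was tested only through the channel in which it was brighter. Its call is therefore no support for a difference, and the size of the ratio is not settled. With the processed signals and with the deposited ratios the mean was 1.96, and with a normexp offset of 16 it was 1.14.

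Abcb1b was lower on each of its 3 probes. On A_52_P170509, livers 1 to 5 had ratios of -0.77, -1.20, -0.30, -0.49 and -0.47 (mean -0.65 ± 0.35, adjusted p = 0.00666). Liver 2 was farthest below the reference. Its signals were 357, 365, 880, 616 and 658 in livers, against 659, 916, 932, 1120 and 1340 in the reference. On A_51_P245368 the ratios were -0.20, -0.63, -0.69, -0.65 and -0.23 (mean -0.48 ± 0.24, adjusted p = 0.00532). There the lowest livers were 2, 3 and 4, so the order of livers differed between these probes. On A_52_P92772 the ratios were -0.42, -0.04, -0.28, -0.29 and -0.59 (mean -0.32 ± 0.20, adjusted p = 0.0284). The call of this probe was lost without liver 1, 3, 4 or 5, at adjusted p between 0.0642 and 0.0850. Whether probes of these paralogs bind each other's transcript was not tested.

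**Figure D2:**
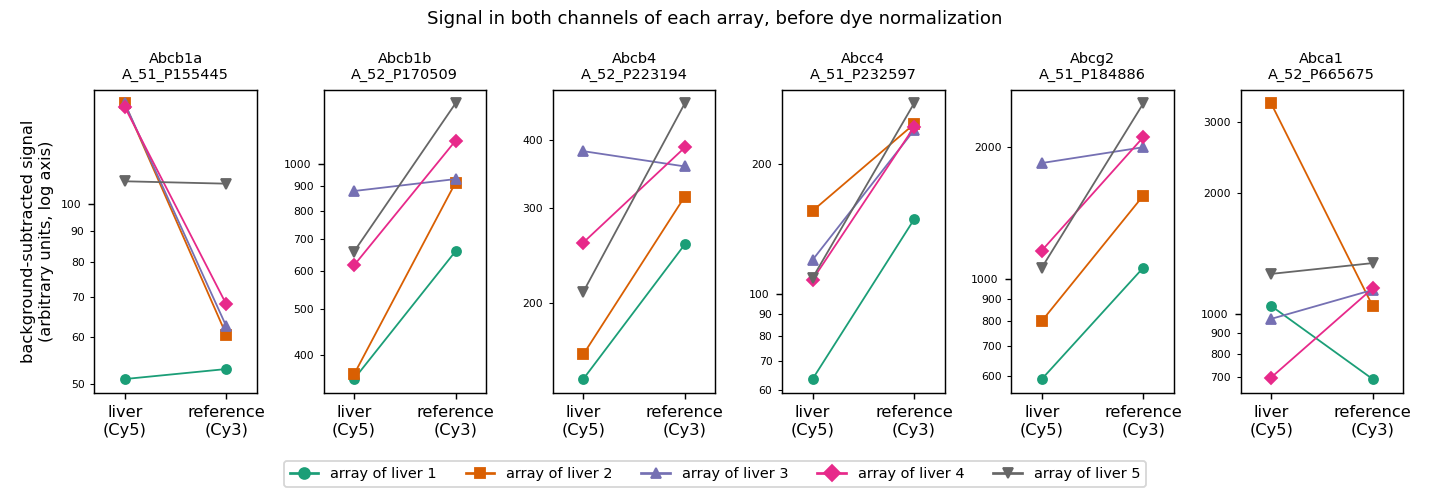
Background-subtracted signal (y axis, arbitrary units, log axis) in the liver channel and in the reference channel of each array, before dye normalization, for 1 probe each of Abcb1a, Abcb1b, Abcb4, Abcc4, Abcg2 and Abca1. Lines join the channels of 1 array; Abcc4 and Abcg2 were brighter in the reference on all 5 arrays, and Abca1 was at 3330 in liver 2 against 1050 in the reference.

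Besides Abcc4, subfamily C of the multidrug resistance proteins had a lower call on 1 probe each of Abcc1 and Abcc3. Abcc1, a broad exporter of glutathione conjugates, was lower on probe A_52_P491507, with ratios of -0.60, -0.47, -0.26, -0.58 and -0.46 (mean -0.47 ± 0.14, adjusted p = 0.00373). All 5 livers lay below the reference on that probe. Its other probes were not called, with means of -0.15 ± 0.05 (adjusted p = 0.0866) and 0.01 ± 0.13 (adjusted p = 0.953). Abcc3, the blood-facing exporter of glucuronides, had ratios of -0.92, -0.50, 0.11, -0.28 and -0.44 on probe A_52_P622067 (mean -0.41 ± 0.37, adjusted p = 0.0468). Its probe A_51_P449878 had -0.80, -0.40, 0.22, -0.02 and -0.22 (mean -0.25 ± 0.39, adjusted p = 0.194) and was not called. On both probes liver 1 lay lowest and liver 3 above the reference. The Abcc3 call was lost without liver 1, 2, 4 or 5, with adjusted p between 0.0896 and 0.115. Abcc2, the canalicular exporter of conjugated bilirubin, had ratios of -0.05, -0.53, 0.21, 0.42 and -0.07 (mean 0.00 ± 0.36, 95% interval -0.29 to 0.28, adjusted p = 0.991). Livers 3 and 4 were above the reference and liver 2 below it. Abcc6, a hepatocyte protein needed for ATP release, had ratios of -0.24, -0.43, 0.07, -0.23 and -0.42 (mean -0.25 ± 0.20, adjusted p = 0.0673). It was not called. Without liver 3, the one liver above the reference, its mean was -0.33 with an adjusted p of 0.0349. Leaving out that liver moves the mean away from 0 by itself. Abcc5, Abcc10 and Abcc12 had means of -0.03, -0.06 and -0.09 on their tested probes, none of them called.

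Exporters of sterol and phospholipid were mixed, with 4 of 11 tested probes lower (36.4%), 2 higher (18.2%) and a median of -0.14. Over all tested probes 11.5% were lower and 16.2% higher. Abcb4, the canalicular flippase that supplies phosphatidylcholine to bile, was lower on both probes. On A_52_P223194 its ratios were -0.56, -0.78, -0.14, -0.18 and -0.47 (mean -0.43 ± 0.27, adjusted p = 0.0175). Livers 1, 2 and 5 were the lower ones and livers 3 and 4 lay close to the reference. The signals of that probe were 145, 161, 382, 259 and 210 in livers, against 257, 315, 358, 388 and 468 in the reference. On A_51_P249118, whose spot was dropped as an outlier on array 1, livers 2 to 5 had -1.04, -0.24, -0.27 and -0.48 (mean -0.51 ± 0.37, SD, n = 4, adjusted p = 0.0264). This probe had an adjusted p of 0.0519 and a mean of -0.33 without liver 2, and 0.0697 without liver 5.

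Abca1, which loads cholesterol and phospholipid onto apolipoprotein A1, varied more between livers than any other tested member. Its log2 ratios were 0.60, 1.68, -0.45, -0.36 and 0.40 in livers 1 to 5. Livers 1, 2 and 5 stood above the reference and livers 3 and 4 below it. The mean was 0.37 ± 0.86 (SD, n = 5, 95% interval -0.33 to 1.07, adjusted p = 0.38), and without liver 2 it was 0.05. The signals were 1050, 3330, 975, 698 and 1260 in livers, against 692, 1050, 1150, 1160 and 1340 in the reference. Abcg1, which passes cholesterol to high-density lipoprotein, had ratios of -0.09, -0.09, -0.12, -0.36 and -0.06 (mean -0.14 ± 0.12, adjusted p = 0.094). Liver 4 was apart from the rest, and the probe was well above background on only 2 of 5 arrays in either channel. With the processed signals Abcg1 was called lower, at -0.62 (adjusted p = 0.0379). Abca7, a phospholipid transporter of phagocytes, was not called on its probes, with means of -0.24 and -0.10. The first of these was called lower without liver 1, the only one above the reference (mean -0.31, adjusted p = 0.0436).

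The remaining lipid exporters gave different answers from different probes. Abca3, known for packing surfactant phospholipid in lung, was higher on A_51_P443082, with ratios of 0.50, 1.10, 0.85, 1.17 and 0.68 (mean 0.86 ± 0.28, adjusted p = 0.0011). It was also higher on A_52_P91265, with 0.25, 0.47, 0.36, 0.43 and 0.28 (mean 0.36 ± 0.09, adjusted p = 0.00734). On A_51_P427317 it was lower, with -0.41, -0.52, -0.53, -0.39 and -0.40 (mean -0.45 ± 0.07, adjusted p = 0.00292). Each of the 3 probes kept its sign in all 5 livers, so no single direction can be given for the gene, and with its probes averaged it had 0.26 (adjusted p = 0.0292). Abca2, a lysosomal lipid transporter, was lower on A_52_P485007, with -0.28, -0.40, -0.30, -0.16 and -0.27 (mean -0.28 ± 0.09, adjusted p = 0.0228). Its other probe had a mean of 0.10 ± 0.33 (adjusted p = 0.573), and the lower call was lost without liver 1, 2, 3 or 5. Averaged over both probes, Abca2 had -0.09 (adjusted p = 0.395). Across the members, 18 genes had several tested probes. The signs of all probes of a gene matched for 11 of them and differed for 7. Every tested probe was called in the same direction for Abcb1b, Abcb4, Abcc4 and Abcg2. For Abcc4 this takes in A_52_P630867, which was tested only through its brighter channel and is no separate evidence.

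Promoter windows are shown for 4 members. Abcb1a, Abcb1b and Abcb4 follow each other on chromosome 5 with 0 protein-coding genes between neighbours, while Abcb1a, on its dim probe, had a mean ratio above 0 and the others below 0, and Abca1 had the widest spread between livers. Each window runs from 250 bases before to 50 bases after the gene's start, on the gene's own strand, as listed by RefSeq on GRCm38.p6. The windows are chr5:8566841-8567140 (plus strand) for Abcb1a, chr5:8797897-8798196 (plus) for Abcb1b, chr5:8893471-8893770 (plus) for Abcb4 and chr4:53159846-53160145 (minus) for Abca1. Capitals mark matches on either strand. The GC box was searched as GGGCGG and the CCAAT box by its own letters. The TATA box was searched as TATAAA and the E-box as CACGTG. The core site of many nuclear receptors was searched as AGGTCA and the core of the antioxidant response element as TGACNNNGC. No match overlapped another in these windows.
Abcb1a: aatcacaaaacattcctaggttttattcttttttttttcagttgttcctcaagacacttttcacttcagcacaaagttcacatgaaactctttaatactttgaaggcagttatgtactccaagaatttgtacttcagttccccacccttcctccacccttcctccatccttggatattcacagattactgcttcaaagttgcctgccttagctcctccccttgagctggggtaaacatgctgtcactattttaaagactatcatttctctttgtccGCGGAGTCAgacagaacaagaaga
Abcb1b: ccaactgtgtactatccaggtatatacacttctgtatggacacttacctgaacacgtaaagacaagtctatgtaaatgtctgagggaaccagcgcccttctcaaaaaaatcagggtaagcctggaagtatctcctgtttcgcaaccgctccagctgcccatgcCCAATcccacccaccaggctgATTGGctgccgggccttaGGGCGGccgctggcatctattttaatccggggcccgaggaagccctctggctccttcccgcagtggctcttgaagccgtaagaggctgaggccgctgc
Abcb4: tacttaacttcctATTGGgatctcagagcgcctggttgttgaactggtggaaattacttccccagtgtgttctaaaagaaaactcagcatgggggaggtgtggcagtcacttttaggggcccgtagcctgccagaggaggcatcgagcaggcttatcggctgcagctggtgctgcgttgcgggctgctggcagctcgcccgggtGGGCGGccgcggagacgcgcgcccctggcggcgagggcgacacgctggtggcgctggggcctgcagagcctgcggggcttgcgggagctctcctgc
Abca1: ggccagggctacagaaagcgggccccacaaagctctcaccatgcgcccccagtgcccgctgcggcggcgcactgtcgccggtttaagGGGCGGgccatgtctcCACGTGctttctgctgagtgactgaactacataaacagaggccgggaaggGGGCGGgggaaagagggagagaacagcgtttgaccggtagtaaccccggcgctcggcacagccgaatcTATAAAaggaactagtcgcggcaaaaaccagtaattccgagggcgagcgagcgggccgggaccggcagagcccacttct
The Abcb1a window held 1 match to TGACNNNGC and none to the other motifs. The Abcb1b window held 1 GC box and 2 CCAAT matches, and the Abcb4 window 1 of each. In the Abca1 window there were 2 GC boxes, 1 TATA box and 1 E-box. Over all 32851 promoter windows, GGGCGG was found in 35.7%, CCAAT in 37.4%, TATAAA in 13.6%, CACGTG in 7.15%, AGGTCA in 16.3% and TGACNNNGC in 12.4%. Windows were listed for 31 of the 42 members (36 windows), of which 58.3% held GGGCGG, 36.1% CCAAT, 13.9% TATAAA, 16.7% CACGTG, 16.7% AGGTCA and 19.4% TGACNNNGC. These matches describe the letters only.

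Among the mitochondrial members, Abcb6, a porphyrin transporter, was lower in liver. Its ratios were -0.62, -0.67, -0.15, -0.18 and -0.53 (mean -0.43 ± 0.25, adjusted p = 0.013). Livers 1, 2 and 5 were the lower ones, as for Abcb4. Its signals were 824, 1060, 2210, 1640 and 1250 in livers, against 1300, 1770, 2110, 2350 and 2610 in the reference. Abcb8 and Abcb10, of the inner mitochondrial membrane, had means of -0.21 (adjusted p = 0.0885) and 0.17 (adjusted p = 0.163) and were not called. None of the peroxisomal and lysosomal members was called. Abcd2, which imports very long chain fatty acids into peroxisomes, had ratios of 0.14, -0.81, 0.14, 0.91 and 0.23 (mean 0.12 ± 0.61, adjusted p = 0.683). Liver 2 was far below and liver 4 far above the reference, with signals of 81 and 247 in these livers against 184 and 158 in the reference. Abcd4, needed for the release of vitamin B12 from lysosomes, and Abcb9, a lysosomal peptide transporter, had means of -0.09 and -0.05.

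The ATPases without membrane domains had 1 lower call among 8 tested probes and none higher, with a median of -0.10. That is near the share called lower of all tested probes (11.5%) and of those with a gene name (13.4%). Abce1, which splits ribosomes after termination, was lower on A_51_P332822, with ratios of -0.20, -0.35, -0.29, -0.40 and -0.23 (mean -0.29 ± 0.08, adjusted p = 0.0185). On A_52_P471913 it had 0.42, 0.05, -0.12, -0.10 and 0.22 (mean 0.09 ± 0.23, adjusted p = 0.489). The probes differed in sign in livers 1, 2 and 5. The lower call had an adjusted p of 0.0522 without liver 3 and 0.0793 without liver 4, and the average of both Abce1 probes was -0.10 (adjusted p = 0.365). Abcf1, Abcf2 and Abcf3, which act in translation, had means between -0.26 and 0.11, none called. One Abcf2 probe was called lower without liver 5 (mean -0.33, adjusted p = 0.0456) and one Abcf3 probe without liver 1 (mean -0.39, adjusted p = 0.0498). In each case the liver left out was the only one above the reference on that probe.

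The Abca6-like group is a run of neighbouring genes on chromosome 11 whose substrates are less well known. Of its 9 tested probes, 2 were lower (22.2%) and 1 was higher (11.1%), against 11.5% and 16.2% of all tested probes. Abca5 was higher on A_52_P51671, with 0.29, 0.51, 0.48, 0.28 and 0.30 (mean 0.37 ± 0.11, adjusted p = 0.00325), while its other tested probes had means of 0.07 and 0.06. Abca9 was lower on A_52_P51503, with -0.31, -0.46, -0.27, -0.24 and -0.22 (mean -0.30 ± 0.09, adjusted p = 0.00844), beside a mean of -0.02 on its other tested probe. Abca8b was lower on A_51_P215794, with -0.19, -0.58, -0.02, -0.44 and -0.24 (mean -0.29 ± 0.22, adjusted p = 0.0405). That call was lost without liver 1, 2, 4 or 5, and the other Abca8b probe had a mean of -0.24 (adjusted p = 0.181). Abca8a had -0.51, -0.70, 0.68, -0.42 and -0.59 (mean -0.31 ± 0.56, adjusted p = 0.25). Liver 3 alone lay above the reference, and without it the mean was -0.55 with an adjusted p of 0.00704. Leaving out the only opposite liver moves a mean away from 0 by itself. Abca6 had 0.21 ± 0.14 (SD, n = 3, adjusted p = 0.196). With the probes of a gene averaged, Abca5 (0.17), Abca8b (-0.27) and Abca9 (-0.16) were not called.

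Other members showed no call. Abcc9, a regulatory subunit of potassium channels, had means of -0.12, -0.16 and -0.10 on its 3 probes. Abca4 (the retinal transporter of retinoids), Abca13, Abca15 and Abca17 had means between -0.09 and 0.16. Abca14 had -0.27 ± 0.23 on A_51_P190753 (adjusted p = 0.0558) and 0.36 ± 0.38 on A_51_P511142 (adjusted p = 0.0748). Without liver 2 the first was called lower (mean -0.36, adjusted p = 0.0209), and without liver 1 the second was called higher (mean 0.49, adjusted p = 0.0155). In each case the liver left out was the only one on the other side of the reference. Abcc8, Abcg3 and Abcg4 had no tested probe. Single probes of Abca13, Abca14, Abca5, Abca9, Abcc12 and Abcd2 and a pair of Abcc5 probes were also too dim to test.

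Several members varied between livers more than most probes. The SD of the log2 ratio between livers had a median of 0.21 over member probes. It was 0.17 over all tested probes and 0.18 over those with a gene name. Above the 90th percentile of all tested probes, at an SD of 0.36, lay 10 member probes (16.1%). They were Abca1 (0.86), Abcd2 (0.61), Abca8a (0.56), Abcc4 (0.40), Abca14 (0.38), Abcb1a (0.38), Abca8b (0.37), Abcb4 (0.37) and both Abcc3 probes (0.39 and 0.37). Liver 2 gave the lowest ratio for 21 of 58 member probes with values in all livers (36.2%, against 25.0% of all such probes). Liver 3 gave the highest for 16 of the 58 (27.6%, against 21.2%). These livers form 1 group, so the spread was not tested.

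**Figure D3:**
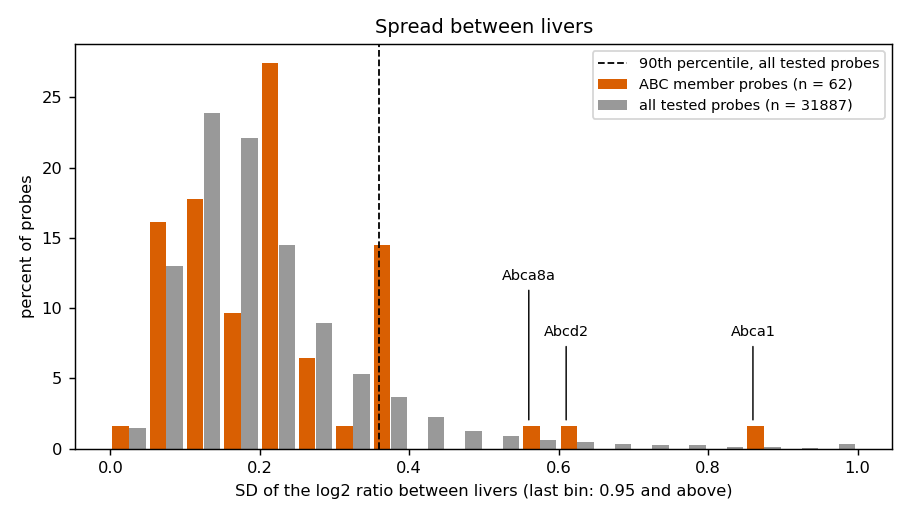
SD of the log2 ratio between livers (x axis, log2 units) as percent of probes (y axis) for the 62 tested member probes and all 31887 tested probes, with a dashed line at the 90th percentile of all. Abca1, Abcd2 and Abca8a lie farthest right of the members.

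The ABC genes left out by the rule, with Tap1, Tap2 and Cftr, are given for comparison. Of their 9 tested probes, 4 were lower (44.4%, against 11.5% of all tested probes). Abcd3, a peroxisomal importer of branched fatty acids and bile acid precursors, had means of -0.78 ± 0.24 (adjusted p = 0.00122) and -0.98 ± 0.22 (adjusted p = 0.00036). Abcg8, which with Abcg5 exports sterols into bile, had -0.60 ± 0.33 (adjusted p = 0.00754) and -1.09 ± 0.75 (adjusted p = 0.0197). Without liver 1 or liver 5 the second Abcg8 probe had an adjusted p of 0.0876 and 0.0591. Abcg5 (-0.25, n = 4), Abcb11, the bile salt export pump (-0.01, n = 3), Tap2 (-0.11) and Cftr (0.00) were not called. Tap1, which feeds peptides to major histocompatibility complex class I, had 0.88, 1.64, -0.44, 0.88 and 0.19 (mean 0.63 ± 0.79, adjusted p = 0.122). As for Abca1, liver 2 was highest and liver 3 lowest.

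Genes that work with ABC transporters were read from 7 lists. Over all tested probes, 11.5% were lower and 16.2% higher, and of those with a gene name 13.4% and 12.7%. Of 23 tested probes for regulators of ABC genes, 6 were lower (26.1%) and 1 was higher (4.35%), with a median of -0.16. Nr1i2, the xenobiotic receptor PXR, had a mean of -0.54 ± 0.21 (adjusted p = 0.0039), and Ppara, the fatty acid receptor, had -0.75 ± 0.60 (adjusted p = 0.0273). The Ppara call was lost without liver 1 or liver 5 (adjusted p = 0.0805 and 0.0635). Srebf2, a regulator of cholesterol synthesis, had 0.28 ± 0.20 on probe A_52_P302001 (adjusted p = 0.0424), a call lost without liver 1, 2, 3 or 4. Its other probe had -0.19 ± 0.30 (adjusted p = 0.234), and the average of both was 0.05 (adjusted p = 0.657). Of 10 tested probes for lipid acceptors and partners, 2 were higher (20%) and 3 lower (30%). Apoa1, the acceptor of the lipid that Abca1 exports, had 1.04, 0.91, 0.50, 0.93 and 1.31 (mean 0.94 ± 0.29, adjusted p = 0.000708), above the reference in every liver. Pltp, the phospholipid transfer protein of plasma, had -2.46, -2.01, -1.67, -1.74 and -0.68 (mean -1.71 ± 0.66, adjusted p = 0.00222), below it in every liver.

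Peroxisome partners had 8 of 14 tested probes lower (57.1%, against 11.5% of all tested probes), none higher and a median of -0.33. The lowest was Acaa1b, a peroxisomal thiolase (-1.70 ± 0.74, adjusted p = 0.00431), and whether it shares signal with its close paralog Acaa1a was not tested. Of the tested Acaa1a probes, A_52_P423183 had -1.66 ± 0.74 (adjusted p = 0.00461) and A_51_P327075 had 0.04 ± 0.13 (n = 4, adjusted p = 0.728). The called probe nearest to the reference was Pex3, a membrane assembly factor (-0.29 ± 0.18, adjusted p = 0.0309). The Pex3 call was lost without liver 1, 2, 3 or 4. The other Pex3 probe had 0.14 ± 0.12 (adjusted p = 0.205), above 0 in all 5 livers, and the average of both was -0.07 (adjusted p = 0.386). Heme and iron-sulfur partners had 6 of 11 lower (54.5%) and none higher. Alas1, the first enzyme of heme synthesis, had -1.60, -1.13, -0.48 and -1.63 in livers 1, 2, 3 and 5 (mean -1.21 ± 0.54, SD, n = 4, adjusted p = 0.00491). The other Alas1 probe had -1.17 ± 0.53 (n = 4, adjusted p = 0.00492). Fech, which inserts iron into heme, had -0.29 ± 0.11 on probe A_52_P293076 (adjusted p = 0.0231), a call lost without liver 1, 4 or 5. The other Fech probe was also lower, at -0.32 ± 0.09 (adjusted p = 0.0138). Of the other hepatocyte transporters, 2 of 16 probes were lower and 1 higher, and the higher one was Slc51a, a subunit of the basolateral bile acid exporter, at 0.25 ± 0.12 (adjusted p = 0.0256). The Slc51a call was lost without liver 1, 2, 4 or 5. It was also lost with the processed signals (adjusted p = 0.0544) and the deposited ratios (adjusted p = 0.0539). Of the 8 probes for proteins that anchor transporters in the membrane, 2 were lower (25%) and none higher. Both were of Rdx (radixin), at -0.62 ± 0.40 (adjusted p = 0.0117) and -0.39 ± 0.36 (adjusted p = 0.0491). The second Rdx call was lost without liver 1, 2, 4 or 5. Ribosome recycling and start partners had 2 of 14 lower (14.3%, near the share of all tested probes) and 1 higher (7.14%). Pelo, the partner of Abce1 in ribosome rescue, was at 0.32 ± 0.12 (adjusted p = 0.0164). Eif2ak4, a kinase of translation start, was at -0.29 ± 0.18 (adjusted p = 0.0178). The other Pelo probe had 0.04 ± 0.28 (adjusted p = 0.811). With median centring the called Pelo probe had 0.19 (adjusted p = 0.33), and the average of both probes was 0.18 (adjusted p = 0.142). The other Eif2ak4 probe had -0.18 ± 0.16 (adjusted p = 0.0791). Pelo was no longer called without liver 1 or 4, and Eif2ak4 without liver 2, 3 or 4.

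**Figure D4:**
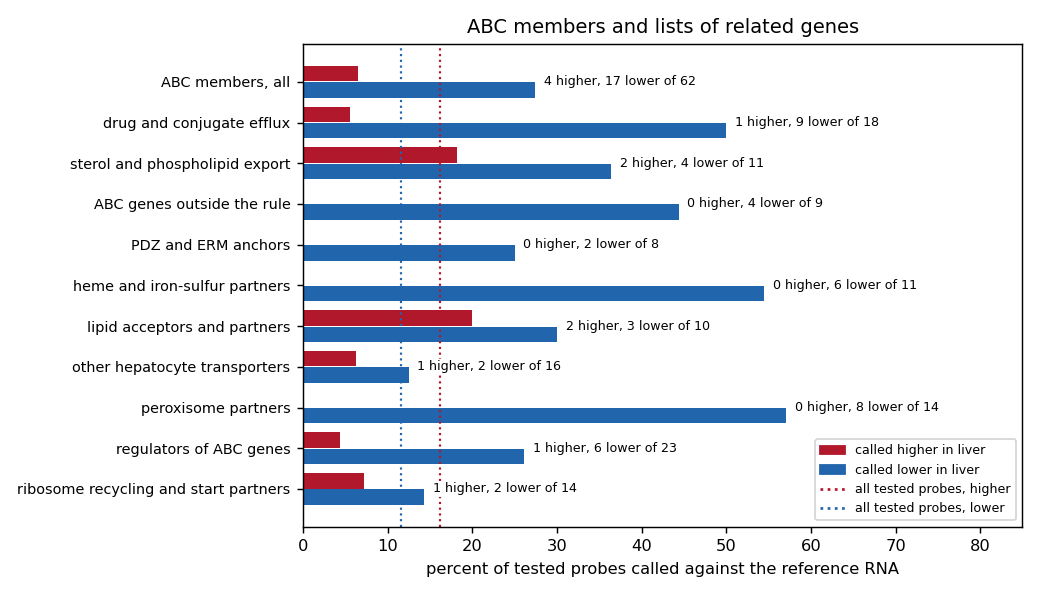
Percent of tested probes called higher or lower in liver than in the reference (x axis) for all ABC members, 2 of their role groups and 8 lists of related genes (rows), with dotted lines at the shares over all tested probes. Lower calls were 27.4% for all members and 57.1% for peroxisome partners, against 11.5% of all tested probes.

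Markers of other cell types differed from the reference in both directions. Lists for Kupffer, sinusoidal endothelial, stellate, bile duct and red blood cells held lower calls and no higher one, while that for lymphocytes held higher calls and no lower one. Those for neutrophils and testis held only 1 higher call each (20% and 16.7% of their tested probes) and no lower one. Medians of the lymphocyte, neutrophil and testis lists were -0.03, 0.00 and -0.16. The called testis probe was of Prm1 (0.59), whose other probes had -0.19 and -0.34. Over all tested probes, 11.5% were lower and 16.2% higher. Of 8 tested Kupffer cell probes, 5 were lower and none higher, and the summed signal over 8 marker probes with values on all arrays was 5450 to 7210 in livers, against 6440 to 9690 in the reference. Sinusoidal endothelial markers had 3 of 8 lower and summed to 2710 to 4630 in livers, against 3470 to 6360 in the reference. For stellate cell markers, 3 of 9 were lower, with sums of 971 to 2060 in livers against 1190 to 2430 in the reference. Bile duct markers had 2 of 8 lower (sums 2490 to 7310 in livers, against 2470 to 6270 in the reference). Red blood cell markers had 2 of 4 lower, with sums of 2670 to 9380 in livers against 9030 to 12900 in the reference. Most of these sums was Hba-a1, at 2050 to 8040 in livers against 7290 to 9680 in the reference. Hba-a1 was not called (adjusted p = 0.0733 in limma). Hepatocyte markers had 1 of 9 higher (Alb) and 1 lower (Ass1). Their sum over 5 probes was 162000 to 250000 in livers, against 120000 to 155000 in the reference. Most of that sum was Alb, at 143000 to 203000 in livers against 75100 to 92400 in the reference. Among markers of blood cells and other organs, calls higher and lower numbered 2 and 0 of 6 probes for lymphocytes, 1 and 0 of 5 for neutrophils, 2 and 2 of 12 for brain, 1 and 3 of 8 for muscle, 1 and 1 of 6 for kidney and 1 and 0 of 6 for testis. The sums are of signals before dye normalization. No list's markers were at background in every probe, and the part of these cells in the ABC results was not tested.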

How the data were processed

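The 5 arrays analysed were 2-colour Agilent arrays, each holding 1 liver sample (Cy5) and the reference RNA (Cy3). Per the file headers, the authors read spot intensity with Agilent Feature Extraction 11.5.1.1 as the median brightness of spot and local background, not normalized, beside processed intensities that were background-subtracted and dye-normalized. The files also hold deposited log10 ratios of the processed intensities and flags for background, saturation and outliers. A table of log2 ratios that the authors deposited covers 40599 probes, and 91.2% of its values lay within 0.001 of the scanner ratio of the same array, which gives its scale and direction (liver over reference). The medians of its columns were -0.03, -0.07, -0.08, -0.10 and -0.03. How its probes were selected is unknown here.

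Median intensities were background-corrected with normexp (offset 50) and loess-normalized within each array in limma 3.58.1 (R 4.3.3), with control and outlier spots at weight 0. Outlier spots (2.32% to 4.05% per array) were then left out, and no spot was saturated. Of 41174 probes, 24375 were named through RefSeq accessions in an annotation of GRCm38.p6. The files' headers name build mm8, so only RefSeq promoter windows are given with coordinates. Ratios were fitted probe by probe with an intercept only and eBayes (trend, robust, two-sided) on all 31887 tested probes, with Benjamini-Hochberg adjustment over all of them. The fit was tested on simulated data. The number of arrays limits the precision.

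The members, lists and tests were chosen with earlier results of these data known. Values in every liver are given for the called members with the largest mean ratio (up to 12 genes), the 5 with the largest SD, and always for Abca1, Abcb1a, Abcb1b, Abcb4, Abcc2, Abcc3, Abcc4, Abcc6, Abcd2, Abce1, Abcg1 and Abcg2. Of each related list the highest and the lowest called gene are named, and all ABC genes outside the rule are named once, except for a few items that are not reported here. The values of Nr1i2, Acaa1a and Abca14 and the per-liver values of Abca2 and Tap1 fall outside this rule and were chosen after they were seen. Alternatives covered background correction, normalization, the deposited ratios, the filter on dim probes, probes combined by gene, the prior, outlier spots and leaving out each liver. All 5 arrays were on slides of their own and were scanned on 1 day.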

Additional observations from a re-analysis of the deposited data

Results flagged for a closer look

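Among 82 member and related-gene probes with values in at least 4 livers, 2 had 1 liver far from the others by Dixon's ratio of gap to range (2.44%). Chance alone gives about 1 in 20 groups such a gap. Abca8a had a log2 ratio of 0.68 in liver 3, against -0.70 to -0.42 in the other livers. Abcg1 had -0.36 in liver 4, against -0.12 to -0.06 in the others, on a probe well above background on only 2 of 5 arrays in either channel. For neither was a cause tested.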

How the results depend on the processing

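Lower calls outnumbered higher calls among member probes in every setting run on single probes, with 10 to 21 lower and 2 to 5 higher. The 10 were among the 39 probes of the setting with 1 probe per gene. Over all probes of these settings, 6.05% to 14% were lower and 9.53% to 16.9% higher. Of the 21 called member probes, 10 were called in every setting that gave them a value, among them Abcb1a, Abcb6 and 1 probe or more of Abca3, Abcb1b, Abcb4, Abcc1, Abcc4 and Abcg2. For Abcb1a, tested only through its brighter channel, this adds no support for a difference. The other 11 lost their call in at least 1 setting, and 11 of 41 uncalled probes gained one. Every call gained by leaving out a liver came without the only liver on the other side of the reference. That removal moves a mean away from 0 by itself, so these calls are no support for a difference. With both channels required to be well above background on all arrays, 2 member probes were higher and Abcb1a had no value. With probes of a gene averaged, 6 member genes were lower, against 12, and 2 higher, and 3 related genes were higher, against 5. At 2-fold, 1 member probe was higher with the processed signals, the deposited ratios and a normexp offset of 16, and 1 was lower with the processed signals and 2 with the deposited ratios. Related-list probes called higher numbered 3 with median centring and 3 with the processed signals. Leaving out 1 liver at a time gave 4 to 5 member probes higher and 12 to 16 lower, 0 at 2-fold in either direction, 2 to 5 related probes higher and 22 to 26 lower, and at 2-fold 0 to 1 higher and 5 to 7 lower. Averaging reversed Abca3 probe A_51_P427317 (0.26, adjusted p = 0.0292) and Abcc1 probe A_52_P601688 (-0.21, adjusted p = 0.0266), where the average takes in probes of the other sign. For the other changes the cause was not tested. A slide or scan block was not run, because no slide held over 1 array and all shared a scan day. No paired analysis was possible because the samples form 1 group. Signal close to background limits Abcb1a, Abcg1 and the second Abcc4 probe.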
